A study of Mus musculus with 16 samples.

Results

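Untreated WT-labelled cells were compared with T3-treated RXRgKO-labelled cells, 4 RNA-seq libraries against 4 of the 16 in the series, chosen by their titles (WT ctrl and RXRgKO T3, numbers 1 to 4 in each). The question was which genes the hormone brought, under the knockout label, up to or past their level in untreated WT-labelled cells, and which genes stayed apart. All groups were oligodendrocyte precursor cells (OPCs) grown from mouse neural stem cells of a mixed C57BL6J/129svEmx background and collected on day 4 of monolayer culture. The WT-labelled libraries are labelled as RXRg+/+ cells without hormone, and the RXRgKO-labelled libraries as RXRg-/- cells given T3 (triiodothyronine) for 24 hours. The 4 untreated RXRgKO-labelled libraries served as the starting point, and the 4 T3-treated WT-labelled libraries entered the model fit only. Whether the 4 libraries of each group stand for separate cultures or animals is not stated in the labels, and the p-values therefore measure a spread between libraries that may be technical.

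Thyroid hormone enters the nucleus, binds its receptors TRα (Thra) and TRβ (Thrb), and these act on target genes as heterodimers with a retinoid X receptor (RXR). Rxrg encodes RXRγ, one of the RXR isoforms, alongside RXRα and RXRβ. T3 is known to favour the exit of OPCs from division and their maturation into myelin-forming oligodendrocytes, which then make large amounts of mRNA for myelin proteins such as MBP and for the enzymes of myelin lipids. Because the comparison differs in both label and hormone, the difference of each gene is the sum of the difference between labels without T3 and the change with T3 under the RXRgKO label. The 3 differences share libraries, so they are given side by side and the agreement between them is not offered as evidence.

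The 8 libraries held between 18262279 and 42588442 counts in genes. Levels are given as CPM, counts scaled to the library's total with TMM normalisation, differences as log2 values with their standard error (SE), and a gene is called where edgeR's Benjamini-Hochberg adjusted p was under 0.05. In libraries 1 to 4, Rxrg was measured at 1.789, 1.479, 1.137 and 1.654 CPM under the WT label and at 5.46, 4.89, 4.27 and 5.05 CPM in the T3-treated libraries under the RXRgKO label. All 4 RXRgKO-labelled values lay above all 4 WT-labelled ones, the reverse of what the labels state, with a log2 difference of 1.69 (SE 0.22, adjusted p 4.2e-05). Untreated RXRgKO-labelled libraries held 3.77 to 4.83 CPM. The sources used here do not say which exons the deletion covers, and the counts are summed over the whole gene, so the groups are named by their labels throughout.

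Libraries of one label did not form single sets. Xist, the RNA of the inactive X chromosome, stood at 1.39 and 1.53 CPM in T3-treated RXRgKO-labelled libraries 1 and 2 but at 723 and 711 CPM in libraries 3 and 4. Of the untreated RXRgKO-labelled libraries, 1 and 3 had 3.22 and 3.75 CPM and 2 and 4 had 543 and 631 CPM, while the WT-labelled ones had 526 to 1382 CPM. The libraries with low Xist are called the low-Xist libraries below, and values on each side of this split are given beside many of the results. WT-labelled library 1 also stood apart: its count differences from libraries 2 to 4 came to a chi-square per gene of 8.20 to 8.49, against 1.57 to 1.60 among those 3. Under the RXRgKO label it followed Xist. With T3 it was 1.503 between libraries 1 and 2 and 1.795 between 3 and 4, against 8.587 to 9.617 across. Without T3 it was 2.04 between 1 and 3 and 1.613 between 2 and 4, against 4.944 to 6.726 across. The tests count 4 independent libraries per group, which these sets may not be. Fits that leave out the low-Xist or the high-Xist RXRgKO-labelled libraries keep 2 libraries in each group of that label. These are the close pairs above, so the calls, counts and adjusted p-values of such fits rest on a narrow spread. The mitochondrial share of gene counts was 1.30% to 1.87% in WT-labelled libraries and 1.06% to 1.24% in T3-treated RXRgKO-labelled ones (p = 0.0286 by a two-sided exact permutation test, the lowest value possible with groups of 4), and its part in the results was not tested. The other measures of depth had p-values of at least 0.257 by the same test, without adjustment for the number of measures.

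Olig2 and Pdgfra, genes of the labelled cell type, were present in both groups compared. Mean Olig2, a transcription factor of the oligodendrocyte lineage, was 367 ± 83.5 CPM (SD, n = 4) in WT-labelled and 336 ± 134 CPM (SD, n = 4) in T3-treated RXRgKO-labelled libraries (log2 difference -0.13, adjusted p 0.83). Pdgfra, the PDGF receptor that marks OPCs, was at 646 ± 40.8 and 389 ± 247 CPM (SD, n = 4 each) and was not called (log2 difference -0.73, SE 0.40, adjusted p 0.25). With the RXRgKO-labelled libraries of high Xist left out, Pdgfra was called lower at -1.92 (adjusted p 2.3e-06) and Olig2 at -0.76 (adjusted p 0.018). That fit rests on a single close pair of libraries in each RXRgKO-labelled group. In such bulk samples, fewer cells of a type and less RNA per cell cannot be told apart.

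Of 19764 genes tested, 3496 (17.7%) differed between T3-treated RXRgKO-labelled and untreated WT-labelled cells, 1882 higher (9.52%) and 1614 lower (8.17%). At least 2-fold differences made up 1776 of them, 1034 higher and 742 lower. The 8 libraries did not overlap in 3058 of the called genes. Over all genes tested, called or not, 2257 (11.4%) lay above and 2002 (10.1%) below without overlap. Higher genes were 53.8% of those called, and 42.2% of 5770 called without the high-Xist RXRgKO-labelled libraries. The largest rises among genes chosen by the rule for named genes were those of Prph, an intermediate filament protein, Clca3a1, a chloride channel accessory protein, Steap4, a metalloreductase, and Dio3, the deiodinase that inactivates T3. Large falls were those of Tmem125, a membrane protein, Casr, the calcium-sensing receptor, and Mobp, a structural myelin protein. For the largest rises and falls the rule took only genes whose 8 libraries did not overlap, so their lack of overlap was set by the choice.

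Prph stood at 0.163, 0.0845, 0.0421 and 0.305 CPM in the WT-labelled libraries and at 24.5, 23.6, 36.1 and 40.1 CPM in the T3-treated RXRgKO-labelled ones (log2 difference 7.68, SE 0.43, adjusted p 1.8e-08). The untreated RXRgKO-labelled libraries lay between these groups at 0.578 to 1.62 CPM. Clca3a1 went from 0.421 to 1.06 CPM in the WT-labelled libraries to 55.3, 50.8, 103 and 103 CPM, with the untreated RXRgKO-labelled libraries at 0.448 to 0.685 CPM, inside the WT-labelled range. Its difference of 6.88 (SE 0.36) was therefore nearly all a change with T3 (7.01, SE 0.37), and the difference between labels without T3 was -0.14 (SE 0.41, adjusted p 0.90). Among the T3-treated libraries, Dio3 was lower in the high-Xist pair: it was at 10.8 and 9.47 CPM in libraries 1 and 2 and at 4.21 and 3.54 CPM in 3 and 4, all above the 0.0845 to 0.295 CPM of the WT-labelled libraries (log2 difference 5.16, SE 0.42, adjusted p 6.7e-07). Lpo, which encodes lactoperoxidase, was at 5.69 to 13.4 CPM against 0.0842 to 0.65 CPM (4.97, SE 0.51), and Ccn5, a secreted matrix-associated protein, rose by 4.80 (SE 0.37), of which 4.36 (SE 0.37) was present without T3. Steap4 moved with the Xist split: its 4 T3-treated values were 30.6, 26.8, 4.11 and 4.58 CPM, all above the 0.169 to 0.296 CPM of the WT-labelled libraries.

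Among the falls, Tmem125 was at 8.50, 18.8, 19.0 and 18.3 CPM in the WT-labelled libraries and at 0.387, 0.895, 0.364 and 0.320 CPM in the T3-treated RXRgKO-labelled ones (log2 difference -5.14, SE 0.47, adjusted p 1.7e-06). WT-labelled library 1 was the lowest of its group. Casr (-4.66, SE 0.34), S1pr5, a receptor for sphingosine 1-phosphate (-3.98, SE 0.35), and Fam129a, also known as Niban1 (-3.91, SE 0.19), were lower as well. For these 3 genes the untreated libraries had already differed by -4.57, -4.46 and -3.04, and Fam129a fell further with T3 by 0.86 (SE 0.18, adjusted p 0.011).

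The difference between labels without T3 had 1020 genes lower (5.16% of those tested) and 1220 higher (6.17%) under the RXRgKO label, and T3 under that label raised 398 (2.01%) and lowered 157 (0.794%). Each of the 1020 genes that started lower was placed by where T3 left it. It was past the WT level if T3 raised it and it was then called higher than in WT-labelled libraries, level if T3 raised it, no difference was called and the 95% interval lay inside 2-fold either way, and undetermined if that interval reached past 2-fold. In this way 10 genes (0.98%) went past the WT level, 63 (6.18%) came level and 18 (1.76%) were undetermined, 91 in all. Another 653 (64.0%) were still called lower, and 276 (27.1%) were called neither as raised by T3 to the WT level nor as still lower. These classes come from comparisons that share libraries, so their sizes are a description.

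**Figure D1:**
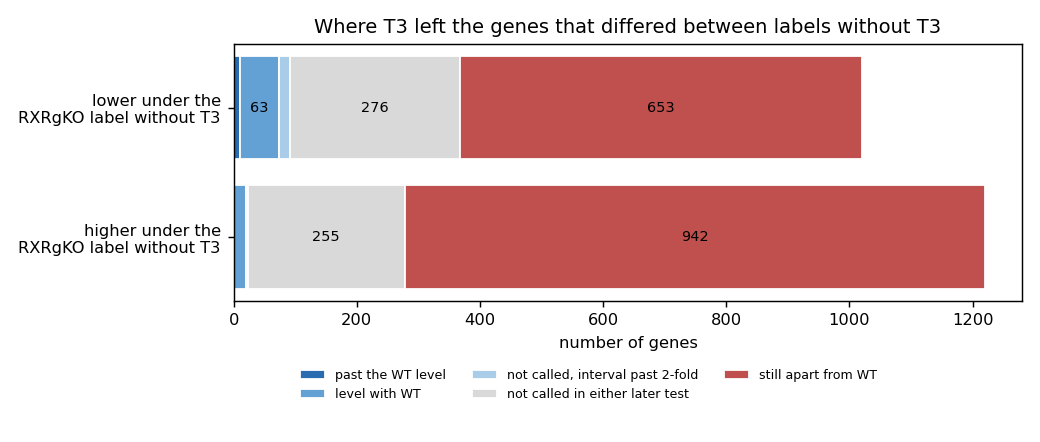
Number of genes (horizontal axis) that were called lower (top bar) or higher (bottom bar) under the RXRgKO label without T3, divided by where T3 left them relative to untreated WT-labelled libraries. The segment of genes still apart is the widest in both bars, with 653 of 1020 genes from below and 942 of 1220 from above.

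Of the 653 genes that stayed lower, T3 raised 40 and lowered 15, and for the other 598 no change with T3 was called. Their median log2 difference from WT-labelled libraries was -1.19 without T3 and -1.12 with it. The 10 genes that went past had a median of -1.08 without T3 and 1.29 with it, and the 63 that came level had medians of -1.06 and -0.05, where the median over all genes tested was -0.0008 and -0.006. The class sizes moved with the Xist split. Without the low-Xist RXRgKO-labelled libraries, 154 genes reached the WT level and 574 stayed lower, and without the high-Xist ones 21 reached it and 2100 stayed lower. The genes past the WT level numbered 26 and 9 in these fits. Single libraries moved the count of 91 as well: it was 48, 43 and 47 without untreated RXRgKO-labelled library 1, 2 or 4, and 43 and 37 without T3-treated library 3 or 4. Beyond the genes that started apart, T3 raised 219 genes that had not been called between labels without it, of which 195 ended above the WT-labelled libraries, and lowered 114, of which 85 ended below.

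The 10 genes that T3 brought past the untreated WT level were Opalin and Mog, 2 myelin membrane protein genes, the T3 targets Hr, Klf9 and Dbp, and Dusp26, Lrrtm2, Kcna1, Daam2 and Tsc22d4. Opalin (chromosome 19, 41061710 to 41077113, minus strand, GRCm38), which encodes a glycoprotein of oligodendrocyte membranes, stood at 3.70, 1.31, 2.27 and 1.04 CPM in the WT-labelled libraries. It was at 0.822, 0.847, 0.724 and 0.925 CPM in the untreated RXRgKO-labelled libraries and at 27.3, 30.0, 47.5 and 45.8 CPM after T3. Every T3-treated value lay above every WT-labelled value, an 18.0-fold difference (log2 4.17, SE 0.35, adjusted p 9.7e-07) that had started from a deficit of 2.497-fold (log2 -1.32, SE 0.39, adjusted p 0.034). Mog (chromosome 17, 37010743 to 37023398, minus strand, GRCm38), the myelin oligodendrocyte glycoprotein at the outer face of the sheath, was at 8.82, 2.37, 3.37 and 2.87 CPM under the WT label, 0.687 to 1.49 CPM under the RXRgKO label without T3, and 12.7, 13.2, 11.9 and 13.1 CPM with it. The T3-treated values did not overlap the WT-labelled ones and lay close together on both sides of the Xist split (log2 difference 1.54, SE 0.33, adjusted p 0.0035).

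The promoters of Opalin and Mog are shown beside those of Mal and Ermn, 2 oligodendrocyte genes that T3 did not bring up, because these pairs ended on opposite sides of the WT level. Each run is the 250 bases before the start site on the gene's own strand, 5′ to 3′ (RefSeq, GRCm38.p6), and capitals mark a match to ACAAAG, a motif of SOX factors, or to AGGTCA, the half-site bound by nuclear receptors, on either strand. The windows lie at chr19:41077114-41077363, chr17:37023399-37023648, chr2:127656696-127656945 and chr2:58052865-58053114, all on the minus strand.
Opalin: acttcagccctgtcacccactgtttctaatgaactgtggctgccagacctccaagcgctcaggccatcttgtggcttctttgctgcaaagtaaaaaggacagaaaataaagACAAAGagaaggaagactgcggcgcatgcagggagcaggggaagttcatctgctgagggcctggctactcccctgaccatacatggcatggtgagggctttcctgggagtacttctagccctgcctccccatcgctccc
Mog: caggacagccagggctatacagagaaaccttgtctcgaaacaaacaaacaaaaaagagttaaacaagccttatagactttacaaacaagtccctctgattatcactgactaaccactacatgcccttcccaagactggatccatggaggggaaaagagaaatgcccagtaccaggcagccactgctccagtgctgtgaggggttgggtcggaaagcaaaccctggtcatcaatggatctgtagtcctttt
Mal: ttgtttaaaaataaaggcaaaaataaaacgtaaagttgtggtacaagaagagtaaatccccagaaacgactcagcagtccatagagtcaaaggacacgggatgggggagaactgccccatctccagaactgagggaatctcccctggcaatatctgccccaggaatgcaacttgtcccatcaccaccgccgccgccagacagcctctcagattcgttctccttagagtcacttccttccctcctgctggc
Ermn: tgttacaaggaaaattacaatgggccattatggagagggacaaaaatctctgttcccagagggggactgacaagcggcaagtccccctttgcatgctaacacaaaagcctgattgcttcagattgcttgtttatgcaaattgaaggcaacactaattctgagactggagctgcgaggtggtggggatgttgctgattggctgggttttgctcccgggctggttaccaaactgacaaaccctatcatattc
The Opalin window held 1 match to ACAAAG and none to AGGTCA, and the other 3 windows held neither. Over all 27025 RefSeq windows of this length, 13.8% held AGGTCA and 16.5% held ACAAAG. Of the 10 genes past the WT level, 5 had a window, of which none held AGGTCA and 1 (20%), that of Opalin, held ACAAAG. Of the 24 listed myelin genes, 18 had a window, of which none held AGGTCA and 5 (27.8%) ACAAAG. Of the 63 genes that came level, 55 had a window, of which 3 (5.45%) held AGGTCA and 8 (14.5%) ACAAAG, and of the 653 that stayed lower, 364 had one, of which 36 (9.89%) and 42 (11.5%) did. A match is a description of these letters and not of binding, and the windows are short.

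Hr, which encodes a corepressor and is a classical T3 target, was at 61.5, 26.8, 29.6 and 29.4 CPM in the WT-labelled libraries, at 10.3 to 15.6 CPM without T3 under the RXRgKO label and at 83.3, 82.3, 164 and 166 CPM after T3 (log2 difference from WT 1.75, SE 0.30, adjusted p 0.00067). The T3-treated values of libraries 1 and 2, the low-Xist ones, were the lower pair and still above WT-labelled library 1. Dusp26, a dual-specificity phosphatase, followed the same order with 41.8, 27.5, 28.1 and 28.5 CPM under the WT label and 67.9, 69.7, 103 and 114 CPM after T3 (1.49, SE 0.19). Dbp, a transcription factor with a daily rhythm, was at 15.1 to 27.5 CPM and then at 36.8 to 42.5 CPM (1.08, SE 0.16, adjusted p 0.00014). Lrrtm2, a leucine-rich repeat membrane protein, reached 137 to 169 CPM against 72.4 to 108 CPM (0.87, SE 0.14), again without overlap. Kcna1, a voltage-gated potassium channel (2.00, SE 0.17), and Daam2, a formin of Wnt signalling (0.92, SE 0.14), fall outside the rule for named genes and are given because the class is small.

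The other members of the class held less firmly. Klf9, a zinc-finger transcription factor induced by T3, was at 50.4, 19.3, 23.5 and 22.3 CPM under the WT label and 42.3, 44.5, 78.0 and 82.3 CPM after T3, so WT-labelled library 1 overlapped the low-Xist T3-treated libraries (log2 difference 1.10, SE 0.29, adjusted p 0.014). Its call was lost without WT-labelled library 2 (0.94, adjusted p 0.059), 3 (0.99, 0.067) or 4 (0.99, 0.060), without T3-treated RXRgKO-labelled library 3 (0.95, 0.056) or 4 (0.91, 0.062), and without all high-Xist RXRgKO-labelled libraries (0.55, 0.20). Tsc22d4, named after its values were seen, rose by 0.54 (SE 0.15, adjusted p 0.022), and this call was lost without WT-labelled library 2 (0.50, 0.071), 3 (0.47, 0.084) or 4 (0.50, 0.074) or T3-treated library 4 (0.49, 0.060), without the high-Xist libraries (0.45, 0.070) and with no filter on low counts (0.54, 0.11).

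Of the 63 genes that came level, those furthest below WT without T3 were Alox5, a lipoxygenase, Barx2, a homeobox factor, Gjc3, the connexin 29 of oligodendrocytes, Rasgef1b, an exchange factor for small GTPases, Arpc1b, a subunit of the Arp2/3 complex, and Ugt8a, the enzyme that makes galactosylceramide for myelin. Gjc3 stood at 116, 63.4, 60.4 and 57.4 CPM in WT-labelled libraries, at 11.1 to 21.5 CPM in untreated RXRgKO-labelled ones and at 70.2, 69.4, 116 and 120 CPM after T3. The T3-treated values lay above WT-labelled libraries 2 to 4 and overlapped library 1 alone, and the difference was 0.34 (SE 0.26, 95% interval -0.21 to 0.88). With both WT-labelled first libraries left out, Gjc3 was called higher (0.64, adjusted p 0.049). Alox5 was at 26.4, 11.5, 11.2 and 11.5 CPM, then 1.35 to 2.12 CPM, then 8.74, 7.42, 17.8 and 19.7 CPM with T3, a final difference of -0.17 (95% interval -0.82 to 0.49). Its low-Xist values lay below all WT-labelled ones and its high-Xist values above 3 of the 4. With the high-Xist libraries left out Alox5 was called lower (-0.94, adjusted p 0.044). Arpc1b ended at -0.47 (SE 0.17, 95% interval -0.83 to -0.10, adjusted p 0.072), and it was called lower by DESeq2 (0.030), with a filter of 1 CPM in 4 libraries (0.041), without T3-treated library 4 (-0.60, 0.037) and without the high-Xist libraries (-0.81, 0.0043). Barx2 ended at -0.17 (95% interval -0.58 to 0.23) and Rasgef1b at 0.03 (95% interval -0.59 to 0.65).

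Ugt8a lay at the edge of the class. It was at 981, 588, 635 and 565 CPM under the WT label, 155 to 185 CPM under the RXRgKO label without T3, and 423, 411, 534 and 577 CPM with it. One T3-treated value exceeded the lowest WT-labelled value, and the difference of -0.51 (SE 0.17, 95% interval -0.87 to -0.14) had an adjusted p of 0.051. Over all libraries it was called lower by DESeq2 (0.012) and limma voom (0.049), with DESeq2 size factors (0.040), with a filter of 1 CPM in 4 libraries (0.021) and with non-robust dispersions (0.048). Ugt8a was also called lower without WT-labelled library 4 (-0.60, 0.047), without T3-treated library 4 (-0.62, 0.045) and without the high-Xist libraries (-0.76, 0.014).

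Myelin and mature oligodendrocyte genes as a group stayed below the untreated WT-labelled libraries. Of 24 genes listed, 23 passed the filter on low counts, with Ppp1r14a under it. In the comparison 11 were lower, 3 higher and 9 not called, with a median log2 difference of -0.69 where the median over all genes was -0.006. Of all genes tested, 8.17% were lower and 9.52% higher. Without T3, 18 of the 23 had been lower under the RXRgKO label with a median of -2.14, and T3 raised 9 and lowered none. Over all genes tested, 5.16% had been lower without T3, and T3 raised 2.01% and lowered 0.794%. The summed level of the list was 14330 to 19600 CPM in WT-labelled libraries, 2216 to 2901 CPM in untreated RXRgKO-labelled ones, and 4119, 4090, 5908 and 6274 CPM after T3. All T3-treated sums lay between the other groups, and the high-Xist libraries had the higher pair. The list's median was -0.61 without the low-Xist RXRgKO-labelled libraries and -1.19 without the high-Xist ones.

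**Figure D2:**
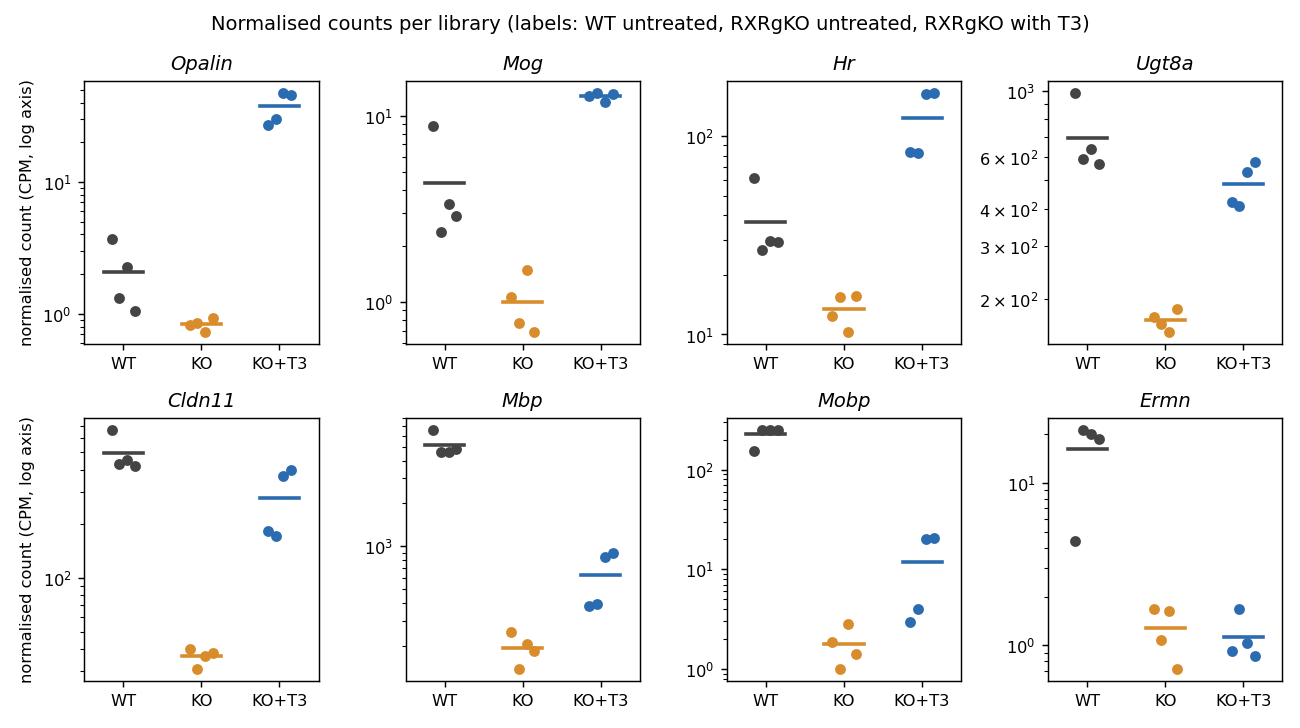
Normalised counts (CPM, log axis) of 8 genes in each library, with points for libraries 1 to 4 from left to right and a line at the group mean, for untreated WT-labelled, untreated RXRgKO-labelled and T3-treated RXRgKO-labelled cells. Opalin, Mog and Hr ended above all WT-labelled libraries, Ugt8a overlapped them, and Cldn11, Mbp, Mobp and Ermn stayed below.

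Mbp, which encodes the myelin basic protein that compacts the sheath, was at 6608, 4603, 4630 and 4853 CPM in the WT-labelled libraries. It was at 137 to 248 CPM in the untreated RXRgKO-labelled libraries and at 383, 393, 840 and 891 CPM after T3. T3 raised it by 1.70 (SE 0.28, adjusted p 0.0022), and it still stood 8.26-fold below the WT-labelled libraries (log2 -3.05, SE 0.29, adjusted p 2.7e-06) with no overlap. Mobp was at 155, 252, 248 and 252 CPM, then at 1.00 to 2.81 CPM, then at 2.98, 4.00, 20.1 and 20.7 CPM with T3. Its low-Xist T3-treated values were thus close to the highest untreated ones, and the difference from WT was -4.23 (SE 0.56, adjusted p 5.7e-05). Mag, the myelin-associated glycoprotein of the inner sheath, came from 46.8 to 65.9 CPM up to 120, 113, 225 and 242 CPM, against 718 to 933 CPM under the WT label (-2.16, SE 0.23).

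Cldn11, the tight-junction protein of the myelin sheath, ended closer to the WT level than Mbp, Mobp and Mag. It went from 31.0 to 40.2 CPM up to 183, 171, 370 and 397 CPM, against 670, 433, 456 and 423 CPM in WT-labelled libraries. The high-Xist pair came near the lowest WT-labelled values without reaching them, and the difference was -0.82 (SE 0.24, adjusted p 0.027). That call was lost without WT-labelled library 1 (-0.64, 0.087), T3-treated RXRgKO-labelled library 1 (-0.67, 0.095) or 2 (-0.64, 0.081), or all low-Xist RXRgKO-labelled libraries (-0.39, 0.15). Tspan2, a tetraspanin, was lower by a log2 value of -0.91 (SE 0.24, adjusted p 0.013), a call lost without T3-treated library 1 (-0.80, 0.051) or the low-Xist libraries (-0.61, 0.12).

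A further set of the list showed no called change with T3. Mal, a proteolipid of myelin membranes, was at 21.8, 31.1, 29.9 and 27.7 CPM in WT-labelled libraries, at 2.39 to 5.41 CPM in untreated RXRgKO-labelled ones and at 6.54, 5.00, 3.30 and 1.70 CPM after T3 (-2.76, SE 0.34, adjusted p 2.6e-05). Its T3-treated and untreated values overlapped, and here the high-Xist pair was the lower one. Ermn, the actin-binding protein ermin of mature oligodendrocytes, stood at 4.39, 21.3, 19.96 and 18.7 CPM against 0.929, 1.68, 1.04 and 0.862 CPM with T3 (-3.87, SE 0.58, adjusted p 0.00019). Its change with T3 was -0.20 (SE 0.62). Hapln2, a link protein of nodes of Ranvier (-3.28, SE 0.27), Gpr37, a receptor of myelinating cells (-2.12, SE 0.28), and Car2, carbonic anhydrase 2 (-0.90, SE 0.21), were also still lower, with changes with T3 of 1.12, 0.98 and -0.17 that were not called.

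**Figure D3:**
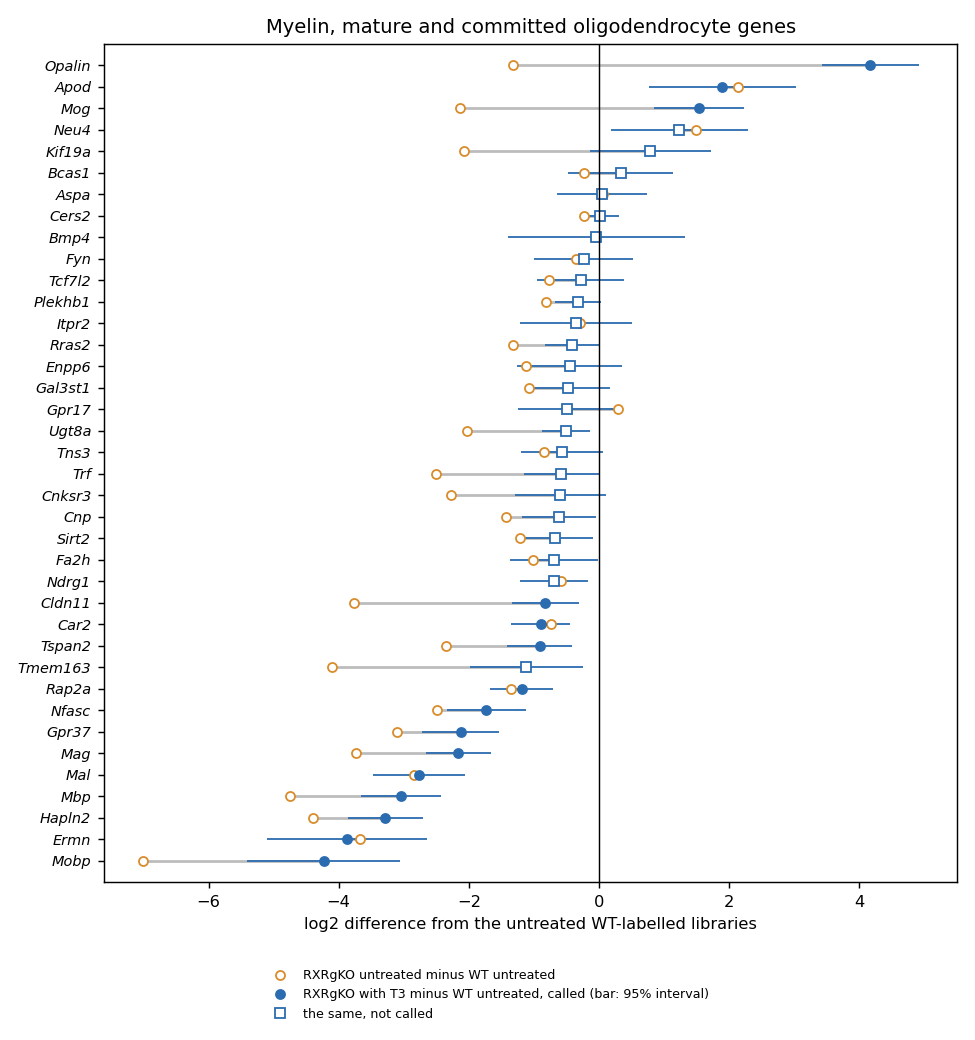
Log2 difference from untreated WT-labelled libraries (horizontal axis) for tested myelin, mature and committed oligodendrocyte genes, without T3 (open circles) and with T3 (filled circles where called, open squares where not, bars for 95% intervals) under the RXRgKO label. Opalin and Mog lie to the right of 0 with T3, while Mobp, Ermn, Hapln2, Mbp and Mal remain furthest to the left.

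Among the members not called, Trf, the iron carrier transferrin, was at 20.6 to 23.0 CPM under the WT label, 3.47 to 4.00 CPM under the RXRgKO label without T3, and 8.55, 7.74, 18.0 and 22.8 CPM with it. The sides of the Xist split differed: the difference was -0.58 (SE 0.27, adjusted p 0.17) over all libraries and -1.43 (adjusted p 0.00047) without the high-Xist ones, and it was also called without T3-treated library 4 (-0.91, 0.026). Cnp, an enzyme of myelin cytoplasm, was at 886, 830, 1478 and 1626 CPM with T3 against 3149, 1365, 1446 and 1422 CPM, an overlap (-0.61, SE 0.27, adjusted p 0.13), and it was called lower without the high-Xist libraries (-1.135, adjusted p 0.014). Apod, the lipocalin apolipoprotein D, was the third member called higher, and it was higher without T3 too. Its T3-treated values of 33.7, 29.1, 7.44 and 7.31 CPM followed the Xist split and overlapped the WT-labelled range of 3.83 to 7.97 CPM, and without the low-Xist libraries it was no longer called (log2 difference 0.50, adjusted p 0.15, against 1.90 and 0.020 over all libraries).

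The genes of committed, premyelinating oligodendrocytes stood closer to the WT level. Of 16 tested, 2 were lower, 14 were not called and none was higher, with a median of -0.43. The lower members were near the share of all genes tested that were lower, 8.17%. Without T3, 7 had been lower with a median of -0.99, and T3 raised 4 of the 16. Over all genes tested, 5.16% had been lower without T3 and T3 raised 2.01%. The 2 still lower were Nfasc, the node and axon-glia adhesion protein neurofascin (-1.73, SE 0.29, adjusted p 0.00046), and Rap2a, a small GTPase (-1.19, SE 0.23, adjusted p 0.0015). The 4 raised by T3 were Tmem163, a zinc transporter, Kif19a, a kinesin, Cnksr3, a scaffold protein, and Rras2, a small GTPase, with changes of 2.98, 2.86, 1.68 and 0.91. Relative to WT-labelled libraries they ended at -1.12 (95% interval -1.99 to -0.25), 0.79 (-0.14 to 1.72), -0.60 (-1.30 to 0.11) and -0.41 (-0.84 to 0.01). Without the high-Xist libraries Tmem163 (-2.46), Cnksr3 (-1.45) and Rras2 (-0.86) were called lower, and Tmem163 was also called lower by DESeq2 (-1.13, 0.024), by limma voom (-1.33, 0.034), with a filter of 1 CPM in 4 libraries (0.049) and without T3-treated library 3 (-1.42, 0.044) or 4 (-1.48, 0.033). Kif19a was called higher without WT-labelled library 1 (1.87, 2.7e-05) and by limma voom (1.23, 0.040). The median of this list was -0.10 without the low-Xist libraries and -0.86 without the high-Xist ones.

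None of the 13 oligodendrocyte lineage transcription factors was called, where 17.7% of all genes tested were. Nkx6-2, a homeobox factor of this lineage, was the only one that T3 raised (1.96, SE 0.33), and Sox5, a SOX factor named after its values were seen, was the only one that T3 lowered (-0.56, SE 0.14, adjusted p 0.034). Over all genes tested, T3 raised 2.01% and lowered 0.794%. Sox5 was at 42.2 to 50.1 CPM in WT-labelled libraries and at 31.5, 31.5, 41.8 and 40.03 CPM with T3, all below the WT-labelled ones, and the difference was not called (-0.35, SE 0.14, adjusted p 0.089). Nkx6-2 was at 12.97, 26.9, 25.1 and 26.8 CPM in WT-labelled libraries and at 42.3, 40.3, 32.7 and 36.4 CPM with T3, so the groups did not overlap, but the difference of 0.72 (SE 0.32) had an adjusted p of 0.14. Myrf, the master regulator of myelin genes, was at 122, 130, 317 and 316 CPM with T3 against 470, 270, 269 and 287 CPM, with the low-Xist pair below the WT-labelled range and the high-Xist pair inside it (-0.55, SE 0.33, adjusted p 0.29). Without the high-Xist libraries Myrf was called lower (-1.39, adjusted p 0.0012), and so were Olig1 (-1.08, adjusted p 0.00027) and Olig2 (-0.76, adjusted p 0.018).

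T3 response genes of neural cells ended above the WT level more often than below it. Of 12 tested, 7 were higher, none lower and 5 not called, with a median of 0.95, where 9.52% of all genes tested were higher and 8.17% lower. Without T3, 3 had been lower (Hr, Klf9 and Dbp) and 1 higher (Gbp3), and T3 raised 6. Over all genes tested, 5.16% had been lower and 6.17% higher without T3, and T3 raised 2.01%. The list's summed level was 167 to 275 CPM in WT-labelled and 333 to 388 CPM in T3-treated RXRgKO-labelled libraries. Gbp3, a guanylate-binding protein, was at 1.73 to 2.83 CPM and then at 38.8, 35.7, 21.1 and 20.5 CPM with T3 (log2 difference 3.63, SE 0.27). Stat5a, a signal transducer of cytokine receptors, was at 0.842 to 1.91 CPM and then at 3.91 to 5.42 CPM (1.90, SE 0.32). Neither gene overlapped between the groups. Camk4, a calcium-dependent kinase, rose by 0.82 (SE 0.21, adjusted p 0.013), a call lost without T3-treated library 3 (0.69, 0.053) or the high-Xist libraries (0.46, 0.16).

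Of the receptors, deiodinases and transporters through which T3 acts, 13 of 14 were tested, with Dio1 under the filter on low counts, and 3 were higher and 3 lower. Among all genes tested the shares were 9.52% higher and 8.17% lower. The higher ones were Rxrg, Dio3 and Crym, the T3-binding cytosolic protein μ-crystallin. Crym was at 1.504 to 2.44 CPM in WT-labelled libraries and at 10.5, 10.5, 18.7 and 17.8 CPM with T3 (2.89, SE 0.32), after 11.8 to 33.4 CPM without it. Dio2, the deiodinase that makes T3, was at 40.8, 19.98, 23.5 and 25.4 CPM and then at 13.2 to 14.9 CPM, without overlap (-0.96, SE 0.21, adjusted p 0.0042). Dio3 thus stood above and Dio2 below the WT-labelled libraries, and of these only Dio2 had been called between labels without T3 (-1.20, SE 0.21).

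Thra, the main T3 receptor gene of the brain, was at 641, 374, 402 and 418 CPM in WT-labelled libraries and at 229, 221, 327 and 355 CPM in T3-treated RXRgKO-labelled ones (-0.70, SE 0.19, adjusted p 0.017). The groups did not overlap, but the call was lost without WT-labelled library 1 (-0.49, 0.069), T3-treated library 1 (-0.61, 0.075) or 2 (-0.59, 0.062), or the low-Xist libraries (-0.45, 0.11). Thrb was at 14.2 to 14.5 CPM and then at 10.1 to 12.1 CPM (-0.41, SE 0.13, adjusted p 0.042), and its adjusted p passed 0.05 in 11 of the 12 fits that left out 1 library, at values from -0.43 to -0.38. Rxra (-0.11, SE 0.25) and Rxrb (-0.24, SE 0.15) were not called over all libraries, and both were called lower without the high-Xist ones (-0.69, adjusted p 0.017, and -0.59, adjusted p 0.0021).

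From above, few genes came down to the WT level. Of the 1220 that were higher under the RXRgKO label without T3, 1 went past (0.082%), 19 came level (1.56%) and 3 were undetermined, 23 in all, while 942 (77.2%) stayed higher and 255 (20.9%) were called neither way. Of the 942, T3 raised 48 further and lowered 5, and for 889 no change was called. Without the low-Xist RXRgKO-labelled libraries 82 reached the WT level and 819 stayed higher, and without the high-Xist ones 2 and 1337. The count of 23 was 12, 15 and 14 without WT-labelled library 2, 3 or 4, 7 without untreated RXRgKO-labelled library 2 or 4, and 13 without T3-treated library 3 or 4. Ebf2, a transcription factor, had 3.41 to 4.45 CPM without T3 under the RXRgKO label and 0.851, 1.05, 1.51 and 1.43 CPM with T3, inside the 0.634 to 1.52 CPM of the WT-labelled ones (0.30, SE 0.28, 95% interval -0.29 to 0.89). Slit3, a secreted guidance protein (0.28, 95% interval -0.23 to 0.80), Pcsk2, a prohormone convertase (0.06, -0.28 to 0.40), Amz1, a metallopeptidase (0.24, -0.09 to 0.57), and Grk3, a receptor kinase (-0.16, -0.54 to 0.22), came level too. The T3-treated values of Grk3, 11.1 to 13.1 CPM, all lay just below the 13.4 to 14.4 CPM of the WT-labelled libraries. Among genes still higher, those furthest from WT without T3 included the macrophage and microglial genes Lyz2, Fcrls, Adgre1 and C1qc.

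Markers of 4 cell types outside the oligodendrocyte lineage were for the most part higher in T3-treated RXRgKO-labelled libraries, where 9.52% of all genes were, and most of them had been so without T3. Of the mural and mesenchymal markers 8 of 12 were higher and 1 lower (median 2.63), of the microglia markers 8 of 12 higher (median 2.33), of the ependymal markers 5 of 7 tested (median 2.10) and of the endothelial markers 5 of 8 tested (median 1.11). T3 under the RXRgKO label raised or lowered none of the tested members, where it raised 2.01% and lowered 0.794% of all genes tested. With so few calls over all genes, the lack of calls here does not show that T3 left these markers unchanged. No marker of these 4 lists was at 0 in all 16 libraries of the series. The part of other cell types in the gene differences above was not tested.

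Summed mural and mesenchymal markers were at 85.7 to 108 CPM in WT-labelled libraries and at 611, 548, 665 and 612 CPM with T3. Col1a1, a fibrillar collagen, was at 2.62 to 6.14 CPM and then at 26.5, 26.7, 34.4 and 36.4 CPM (2.98, SE 0.30), and Acta2, smooth muscle actin, was at 3.21, 13.4, 17.2 and 15.6 CPM and then at 213, 174, 304 and 274 CPM (4.29, SE 0.48). Neither gene overlapped between the groups, and the high-Xist pair was the higher one for both. Summed microglia markers were at 5.93 to 7.36 CPM and then at 37.3, 28.1, 9.96 and 12.7 CPM, with the low-Xist libraries well above the high-Xist ones. Untreated RXRgKO-labelled sums were 34.8 and 39.3 CPM in the low-Xist libraries and 24.4 and 26.5 CPM in the high-Xist ones. C1qa, a complement component made by microglia, was at 0.0813 to 0.380 CPM under the WT label and at 4.99, 3.21, 0.676 and 1.08 CPM with T3 (3.30, SE 0.60, adjusted p 0.0011), and the median of the list was 1.23 without the low-Xist libraries. Lyz2, the lysozyme of macrophages, had 31.1 and 22.4 CPM in low-Xist and 1.04 and 0.714 CPM in high-Xist T3-treated libraries, against 0.174 to 0.674 CPM, and its log2 difference of 4.66 (adjusted p 0.0073) became 0.69 (adjusted p 0.23) without the low-Xist libraries. Fcrls (4.40, SE 0.58), a receptor of microglia, and Adgre1 (3.09, SE 0.58), the macrophage antigen F4/80, were higher as well.

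**Figure D4:**
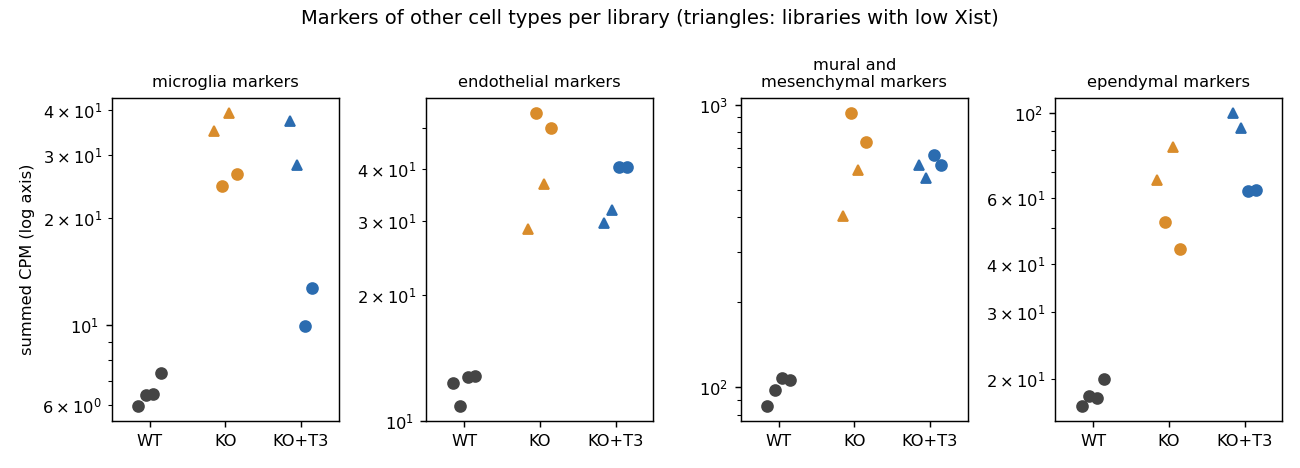
Summed CPM (log axis) of the tested and untested markers of 4 other cell types in each library, with triangles for libraries with low Xist and circles for the others. All RXRgKO-labelled libraries lie above all WT-labelled ones in each panel, and the microglia sums of T3-treated libraries fall into 2 levels, 37.3 and 28.1 CPM against 9.96 and 12.7 CPM.

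Endothelial markers summed to 10.8 to 12.8 CPM and then to 29.7 to 40.5 CPM, with Kdr, a VEGF receptor, at 4.31 to 6.91 CPM and then 17.3, 16.9, 29.1 and 29.5 CPM (2.03, SE 0.30). Ependymal markers summed to 16.9 to 19.9 CPM and then to 62.5 to 101 CPM, and Foxj1, the transcription factor of motile cilia, was at 13.1 to 15.9 CPM and then at 72.9, 64.2, 49.9 and 49.9 CPM (2.06, SE 0.19). Both genes were higher in every T3-treated library than in any WT-labelled one. Against 9.52% of all genes tested higher and 8.17% lower, 2 of 13 astrocyte markers were higher, of neuron markers 3 of 18 were higher and 1 lower, and of neural stem cell markers 1 of 6, Vim, an intermediate filament of immature glia, was higher (1.24, SE 0.16). Astrocyte markers summed to 3881 to 9497 CPM under the WT label and to 9091, 8004, 5290 and 5552 CPM with T3. Neuron markers summed to 1872 to 2259 CPM and then to 2021 to 2753 CPM, so both lists were abundant in these cultures. Gfap, the astrocyte filament, was at 4728, 819, 835 and 1001 CPM and then at 4010, 3458, 1756 and 1944 CPM, an overlap set by WT-labelled library 1 (0.60, SE 0.67, adjusted p 0.62), and with both WT-labelled first libraries left out it was called higher (1.65, adjusted p 0.019).

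Cell cycle genes were lower in T3-treated RXRgKO-labelled cells than in untreated WT-labelled ones. Of 30 tested, 17 were lower and none higher, with a median of -0.87, where 8.17% of all genes tested were lower and 9.52% higher. In all 4 libraries against all 4, 19 were lower, where 10.1% of all genes tested were below without overlap and 11.4% above. Between labels without T3, 4 had been lower (median -0.31), and T3 lowered 2 (median -0.45), so most of the 17 were called in the combined difference and in neither part. Over all genes tested, 5.16% had been lower without T3 and T3 lowered 0.794%. Summed, the list was at 1664 to 2082 CPM and then at 770 to 1379 CPM. The list's median was -1.46 without the low-Xist RXRgKO-labelled libraries and -0.50 without the high-Xist ones.

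Cenpf, a kinetochore protein of dividing cells, was at 92.2, 85.5, 93.0 and 84.9 CPM in WT-labelled libraries, at 48.6, 68.2, 53.2 and 66.6 CPM in untreated RXRgKO-labelled ones and at 35.6, 38.3, 28.5 and 28.7 CPM with T3 (-1.44, SE 0.15, adjusted p 6.9e-06). Each group lay below the one before without overlap. Cenpe, a mitotic kinesin (-1.49, SE 0.17), Cdc20, an activator of the anaphase-promoting complex (-1.29, SE 0.19), and Ube2c, its ubiquitin-conjugating enzyme (-1.33, SE 0.20), were lower as well. Cdc20 was at 28.6 and 24.4 CPM in the low-Xist and at 14.8 and 14.1 CPM in the high-Xist T3-treated libraries, against 48.5 to 53.3 CPM. Mki67, the proliferation antigen Ki-67, fell by 1.29 (SE 0.21, adjusted p 0.00045). Among replication genes, chosen after their values were seen, Mcm7 was lower (-0.37, SE 0.11, adjusted p 0.025), a call lost without WT-labelled library 2 (adjusted p 0.072), 3 (0.051) or 4 (0.052), T3-treated library 2 (0.064), 3 (0.057) or 4 (0.063) or the high-Xist libraries (0.058), and with no filter on low counts (0.30). Pcna (-0.29, SE 0.25) and Mcm4 (-0.15, SE 0.22) were not called, and Pcna was called lower without the low-Xist libraries (-0.88, adjusted p 0.017). Of 7 D cyclins and CDK inhibitors, 1 was called, near the 17.7% called over all genes tested: Cdkn1a, the inhibitor p21, was higher (1.56, SE 0.28, adjusted p 0.00082).

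**Figure D5:**
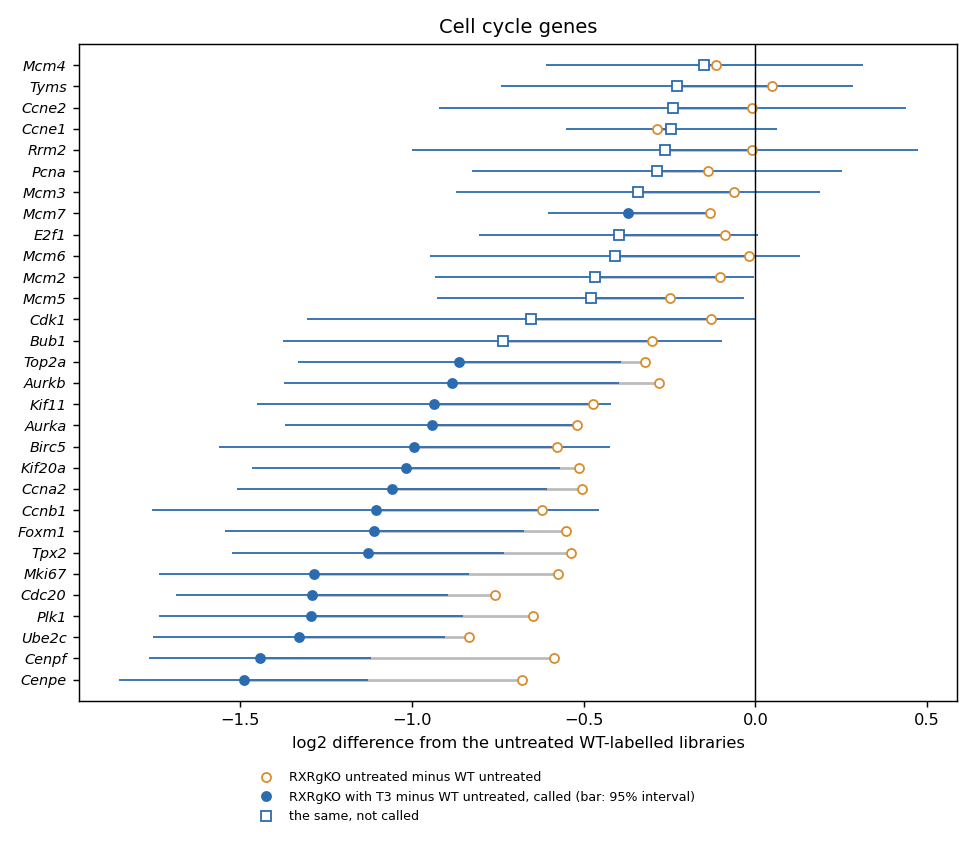
Log2 difference from untreated WT-labelled libraries (horizontal axis) for the 30 cell cycle genes, without T3 (open circles) and with T3 (filled circles where called, open squares where not, bars for 95% intervals) under the RXRgKO label. Cenpe, Cenpf and Ube2c lie to the left at -1.49, -1.44 and -1.33, and no gene is called to the right of 0.

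Of 17 OPC markers, 4 were lower and none higher, with a median of -0.27, where 8.17% of all genes tested were lower and 9.52% higher. The lower sum lay in the low-Xist libraries: the summed list was at 5178 to 7730 CPM under the WT label and at 3105, 3043, 5765 and 6129 CPM with T3, and its median was 0.004 without the low-Xist libraries and -0.90 without the high-Xist ones. The 4 called members, Tmem100, Cspg4, Egfr and Bcan, were below every WT-labelled library on both sides of the split. Bcan followed the split as well, at 368, 370, 658 and 681 CPM with T3 against 778 to 1381 CPM under the WT label. Its difference was -0.86 (SE 0.26, adjusted p 0.031), and its call was not followed through the alternative fits. Tmem100, a membrane protein of OPCs in this list, was at 27.1, 28.1, 27.7 and 26.8 CPM in WT-labelled libraries and at 8.98, 9.89, 10.2 and 9.18 CPM with T3, with little spread within either group (-1.52, SE 0.11, adjusted p 2.1e-07). Most of that was the change with T3 (-1.17, SE 0.11). Cspg4, the proteoglycan NG2, was at 69.4 to 123 CPM and then at 28.2, 28.4, 40.3 and 44.96 CPM (-1.25, SE 0.26), and Egfr, the EGF receptor, at 114 to 129 CPM and then at 69.3 to 88.0 CPM (-0.66, SE 0.14). Of 14 Notch pathway and Id genes, 5 were higher and none lower, against the same shares over all genes. Hes1, a Notch effector (0.96, SE 0.17), was already higher without T3, and Hey1, another effector, was at 71.6, 40.6, 38.7 and 38.0 CPM in WT-labelled libraries and 81.8 to 122 CPM with T3 (1.06, SE 0.22). Id3, an inhibitor of bHLH factors, was at 191, 68.8, 66.5 and 67.1 CPM and then at 432, 395, 256 and 262 CPM (1.77, SE 0.43, adjusted p 0.0086), and it was not called without the low-Xist libraries (1.38, adjusted p 0.062).

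Of 12 immediate early genes, 4 were higher and 1 lower, where 9.52% of all genes tested were higher and 8.17% lower. Fos was at 20.2 to 23.4 CPM in WT-labelled libraries and at 64.9, 64.8, 78.9 and 78.2 CPM with T3 (1.72, SE 0.27), and Junb at 6.01 to 13.1 CPM and then at 26.5 to 34.6 CPM (1.99, SE 0.37). The untreated RXRgKO-labelled libraries had 39.9 and 36.1 CPM of Fos in the low-Xist pair and 14.5 and 14.8 CPM in the other. Arc, a neuronal activity gene, was lower with T3 (-1.89, SE 0.30) as it was without. Of interferon response and MHC class I genes, 8 of 12 tested were higher and none lower (median 1.10), against the same shares over all genes. Among the higher ones was H2-K1, a class I molecule (1.20, SE 0.23). The list's sum was at 116 to 168 CPM under the WT label and at 360, 324, 165 and 177 CPM with T3, so the high-Xist pair lay close to WT-labelled library 1, and the median was 0.56 without the low-Xist and 1.42 without the high-Xist libraries. Ifi27 (1.45, SE 0.34) was no longer called without the low-Xist libraries (0.56, adjusted p 0.066).

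RXR also pairs with the retinoic acid receptors, the LXRs and the PPARs, whose genes and targets were looked at beside those of T3. Of 12 retinoic acid pathway genes 5 were higher and 2 lower, with the retinaldehyde dehydrogenases Aldh1a1 (3.15, SE 0.51) and Aldh1a2 (3.56, SE 0.68) and the binding protein Crabp1 (1.42, SE 0.21) among the higher ones. All 3 had been higher without T3, and no change with T3 was called for any of the 12, where T3 raised 2.01% and lowered 0.794% of all genes tested. Aldh1a1 was at 15.05 and 11.8 CPM in the low-Xist and 4.01 and 3.89 CPM in the high-Xist T3-treated libraries, against 0.392 to 1.67 CPM. Of LXR receptors and targets 2 of 9 were higher, of PPARs and targets 4 of 11 lower, and of cholesterol synthesis and uptake genes 3 of 24 higher, with no call in the other direction in any of the 3 lists and medians of 0.36, -0.29 and 0.43. Over all genes tested 9.52% were higher and 8.17% lower, and the cholesterol list was near that share.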

How the data were processed

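RNA was measured by poly-A selected, strand-marking sequencing (dUTP method) of 16 libraries, 4 in each of 4 groups, per the labels' protocols. The deposited files hold raw counts of reads per gene, one file per library, made by the authors with HTSeq 0.6.1p1 after bcl2fastq 2.17.1.14 and alignment to mm10 with STAR 2.5.3a, per the submitters' processing notes. No source used here gives the annotation release or the strand setting of the counting, so overlapping and antisense genes cannot be told apart. HTSeq's 5 summary lines stayed out of library sizes and tests; in the 8 libraries compared, reads in genes made up 25.4% to 41.0% and reads mapped to several places 41.2% to 55.0% of its total. Of 55335 gene rows, 55154 identifiers matched GENCODE M21, which gave names and coordinates.

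All 16 libraries were fitted together in edgeR 4.0.16 (R 4.3.3; TMM, filterByExpr, robust quasi-likelihood test, a mean per group), and p-values were adjusted by Benjamini-Hochberg over the 19764 genes that passed the filter. The fit was tested on simulated counts. An SE is the log2 difference divided by the square root of its F value. Groups and contrasts came from the sample titles. Per-library measures were compared by exact permutation tests, and over the 22 list sums the lowest Benjamini-Hochberg adjusted p of that test was 0.063. Alternatives used DESeq2 1.42.0, limma 3.58.1 (voom), other filters and scalings, a replicate term, and fits with libraries left out.

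The comparison, gene lists and rules were chosen with earlier results of these data known. Named genes are Rxrg, the 8 largest rises and 8 largest falls among called protein-coding genes that reach a mean of 2 CPM without overlap, the 6 protein-coding genes of each class furthest apart without T3, up to 6 members of each of 22 gene lists by adjusted p, and every member of the T3 and oligodendrocyte lists. Olig2, Pdgfra, Mki67 and the genes marked in the text were named outside this rule. WT-labelled T3-treated libraries are otherwise not analysed here. Results for a few genes are not reported here.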

Additional observations from a re-analysis of the deposited data

Results flagged for a closer look

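For 375 sets of 4 values (named genes, summed lists and measures of depth in each of the 3 groups), the highest or lowest library was set against the other 3 by Dixon's test at its 95% critical value, which chance passes in about 1 of 20 groups. In 61 sets a library stood apart, and in 52 of them it was WT-labelled library 1. Values below are in CPM with the range of the other libraries of the group.

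WT-labelled library 1 was above the rest of its group for many oligodendrocyte lineage genes. These were Mog (8.821 against 2.366 to 3.369), Gjc3 (115.7 against 57.37 to 63.37), Ugt8a (981.4 against 565.1 to 634.7), Mbp (6608 against 4603 to 4853), Cnp (3149 against 1365 to 1446), Cldn11 (669.8 against 422.6 to 456.1), Tspan2 (130.6 against 58.94 to 66.25), Car2 (38.25 against 23.42 to 25.39), Rap2a (503.7 against 286.6 to 317.3). Committed-stage genes, regulators and OPC genes in the same position were Tmem163 (176 against 71.52 to 79.17), Cnksr3 (241.1 against 115.3 to 123.4), Kif19a (50.94 against 8.676 to 10.01), Rras2 (86.91 against 49.13 to 53.28), Myrf (469.5 against 268.9 to 286.9), Olig1 (643.1 against 487 to 498.7), Olig2 (492 against 322.9 to 329.1), Cspg4 (122.6 against 69.41 to 73.3). Genes with other roles were Dusp26 (41.83 against 27.46 to 28.56), Hr (61.55 against 26.79 to 29.65), Klf9 (50.41 against 19.31 to 23.54), Tsc22d4 (363.2 against 261.8 to 275), Alox5 (26.42 against 11.2 to 11.54), Rasgef1b (408.1 against 155.2 to 168), Arpc1b (183.9 against 122.2 to 128.9), Thra (641.2 against 374.2 to 418), Hey1 (71.63 against 38 to 40.64), and Id3 (191.5 against 66.54 to 68.78), Cdc20 (53.29 against 48.54 to 48.85), Cdkn1a (10.73 against 7.37 to 7.922), Junb (13.09 against 6.007 to 6.717), Gfap (4728 against 819.3 to 1001). The same library was below the others for Tmem125 (8.496 against 18.28 to 19.04), Mobp (155.4 against 248.4 to 251.9), Ermn (4.39 against 18.72 to 21.29), Slit3 (0.7724 against 1.785 to 1.937), Camk4 (2.886 against 4.759 to 5.093), Nkx6-2 (12.97 against 25.1 to 26.91), several of which are late oligodendrocyte genes. Its summed levels were also apart: T3 response genes of neural cells (275.2 against 166.6 to 174.9), T3 receptors, deiodinases, transporters and RXRs (931.7 against 551.8 to 611.5), myelin and mature oligodendrocyte genes (19600 against 14330 to 14940), committed and premyelinating oligodendrocyte genes (13250 against 5430 to 5779), oligodendrocyte lineage transcription factors (4519 against 2774 to 2908), OPC markers (7730 against 5178 to 5512), and Notch pathway and Id genes (1400 against 1168 to 1205), cholesterol synthesis and uptake genes (5501 against 2963 to 3121), LXR receptors and targets (4158 against 2084 to 2212), PPARs and targets (702.4 against 483.4 to 520.4), interferon response and MHC class I genes (167.9 against 115.9 to 124.3), astrocyte markers (9497 against 3881 to 4089). This library held 26290516 counts in genes against 22955631 to 23446637, 41.0% of its total in genes against 25.4% to 27.1%, and a mitochondrial share of 1.872% against 1.303% to 1.379%.

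Other libraries stood apart in 9 sets. T3-treated RXRgKO-labelled library 2 did so for Tmem125 (0.8947 against 0.3201 to 0.3869), Pcsk2 (8.895 against 11.11 to 11.41), Hes1 (12.32 against 14.26 to 14.55), and library 1 of that group for Mcm7 (68.33 against 56.43 to 58.37). Among untreated RXRgKO-labelled libraries this held for Egfr (118.1 against 126.2 to 127.3) in library 1 and Tmem125 (1.235 against 0.2696 to 0.4179) in library 3. Among WT-labelled ones it held for Mcm7 (81.79 against 76.35 to 77.24) in library 2, Fcrls (0.3369 against 0.1267 to 0.1626) in library 3 and Lyz2 (0.1741 against 0.6337 to 0.6739) in library 4.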

How the results depend on the processing

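The 5 counts that answer the comparison were 3496 genes called, 91 from below at or past the WT level, 653 still lower, 23 from above at or past the WT level and 942 still higher. DESeq2 gave 168 from below and 38 from above at or past the WT level, limma voom gave 48 from above, and a fit with no low-count filter gave 12 from above. Leaving out each library in turn, except the T3-treated WT-labelled ones, gave 2524 to 4013 called, 37 to 110, 490 to 697, 7 to 29 and 697 to 1003 in the same order. Without the low-Xist RXRgKO-labelled libraries 154 came up to the WT level and 82 came down to it. Without the high-Xist ones 5770 were called, 21 came up, 2100 stayed lower and 2 came down. Both of these fits rest on a single close pair of libraries in each RXRgKO-labelled group. At an adjusted p under 0.01 the counts were 1904, 38, 347, 6 and 551. With both WT-labelled first libraries left out, an alternative chosen after seeing the data, 154 came up and 65 came down. The replicate numbers did not pair the samples, with correlations of same-numbered deviations between the groups compared of -0.21, 0.23, -0.06 and -0.21, and a replicate block gave 3281, 78, 620, 21 and 900. Between untreated and T3-treated RXRgKO-labelled libraries the correlations were 0.54, -0.63, -0.70 and 0.6. Each untreated library there was closest to a T3-treated one on its own side of the Xist split. That split was not a term in the fit, and a block by replicate number cannot stand for it. Of the values of named genes under the alternatives, 2180 stayed on their side of the threshold, 60 lost and 36 gained a call, and none reversed. Of the list medians, 35 moved by more than the spread between libraries and 471 did not. The cause of these shifts was not tested. With a 1.5-fold in place of a 2-fold interval, the level class from below held 30 genes. Genes under the count filter could not be compared at this depth.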
